A study of Mus musculus with 3 samples.

Results

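Cd9, Cd63, Cd81, Cd53, Cd37, Cd82 and Cd151 are the tetraspanins described here, 7 of the 31053 genes in the count tables. They were taken by their symbols and followed in 3 droplet sequencing runs of sorted hippocampal myeloid cells. After cells with under 1000 UMIs (molecular barcodes that count single RNA molecules), under 500 genes or over 10% mitochondrial UMIs had been left out, 19791 cells remained. All mice had the genotype Cx3cr1CreERT2/+, Rosa26tdTomato/+ and NestinTK-eGFP/+, and all received tamoxifen at 100 mg/kg on 4 days. Cells were sorted as tdTomato+ from both hippocampi, so the sort rests on Cx3cr1-driven Cre, which is active in microglia and also in other macrophages. The 12 animals (6 male and 6 female, per the labels) are not assigned to runs, and their age is not given in the labels. All 3 runs carry the same alleles and treatment, so populations are compared within runs, and effects of the alleles or of tamoxifen cannot be told apart from the cells' own state.

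Tetraspanins are small proteins that cross the membrane 4 times and gather integrins, immunoglobulin-family proteins and proteases into membrane domains. CD9 and CD81 are surface tetraspanins that bind the same partner proteins, and CD63 sits mainly in late endosomes, lysosomes and the vesicles released from them. CD53 and CD37 are restricted to leukocytes, CD82 is associated with reduced cell migration, and CD151 binds laminin-binding integrins. In the brain, Cd9 and Cd63 are commonly listed among genes raised in disease-associated microglia.

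In the GENCODE M21 annotation of GRCm38 each member is a protein-coding gene, and counts refer to the whole gene. Cd9 lies at chr6:125460266-125494791 on the minus strand and Cd63 at chr10:128900989-128912822 on the plus strand. Cd81 lies at chr7:143052739-143067934 on the plus strand, and Cd53 at chr3:106759921-106790149 on the minus strand. Cd37 lies at chr7:45233632-45239115 on the minus strand. Cd82 lies at chr2:93419111-93463140 on the minus strand, and Cd151 at chr7:141467392-141471473 on the plus strand.

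The RefSeq promoter windows (GRCm38.p6) of Cd9, Cd63 and Cd81 are shown because Cd9 and Cd63 were high together in 2 microglial populations, while Cd9 and Cd81 were low together in border macrophage-like cells. Each is printed 5′ to 3′ in the direction of transcription, up to the start site or to the first base of a GENCODE exon, and capitals mark GC boxes. They cover chr6:125494792-125495010 (minus strand), chr10:128909095-128909344 (plus strand) and chr7:143052500-143052738 (plus strand). The Cd63 window lies inside the longer GENCODE gene model and overlaps none of its exons.
Cd9: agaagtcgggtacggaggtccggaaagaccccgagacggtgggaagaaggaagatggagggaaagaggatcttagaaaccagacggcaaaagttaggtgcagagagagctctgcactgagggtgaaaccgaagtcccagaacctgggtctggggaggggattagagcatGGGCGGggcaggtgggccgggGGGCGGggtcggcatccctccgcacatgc
Cd63: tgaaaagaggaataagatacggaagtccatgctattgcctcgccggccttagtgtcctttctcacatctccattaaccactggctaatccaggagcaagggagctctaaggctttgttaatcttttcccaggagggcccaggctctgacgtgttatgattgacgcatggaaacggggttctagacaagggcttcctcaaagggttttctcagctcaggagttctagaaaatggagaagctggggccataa
Cd81: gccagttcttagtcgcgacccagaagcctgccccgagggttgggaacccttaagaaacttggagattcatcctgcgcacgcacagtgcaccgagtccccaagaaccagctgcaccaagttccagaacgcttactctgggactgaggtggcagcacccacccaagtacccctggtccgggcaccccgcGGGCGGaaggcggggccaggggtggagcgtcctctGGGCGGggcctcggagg
Over the 250 bases before each start site, the GC box (GGGCGG, both strands) matched 2 times for Cd9, 3 times for Cd81 and 0 times for Cd63. It was found in 32.7% of the 32851 RefSeq windows of that length. GC content was 61.6% for Cd9, 65.6% for Cd81 and 48.8% for Cd63. The E-box CACGTG, the AP-1 sites TGACTCA and TGAGTCA, the PU.1-type site GAGGAAGT, the cyclic AMP response element TGACGTCA and TATAAA were in none of these 3 windows. Those motifs were found in 6.02%, 4.46%, 2.44%, 1.55% and 12.4% of all windows. The Cd37 window held 1 E-box and 1 PU.1-type site, and 1 of the 4 windows of Cd82 held a PU.1-type site. These are matches of letters and were not tested for binding.

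Populations were gated by marker genes, none of which is a member. Reference microglia had at least 3 of 8 microglia markers and passed no other gate (6554, 6455 and 5707 cells in runs 1, 2 and 3). The lipid gate asked for at least 3 detected genes of a lipid and phagocyte set (Spp1, Lpl, Cst7, Itgax, Gpnmb, Lgals3, Axl and Fabp5) and held 54, 42 and 23 cells. The chemokine gate asked for 5 UMIs each of Ccl3 and Ccl4 and held 9, 15 and 16 cells, and its other leading genes included the early genes Atf3 and Egr3. Border macrophage-like cells had at least 3 of 8 perivascular and meningeal macrophage markers (such as Pf4, Mrc1 and Lyve1) and at most 2 microglia markers, and numbered 15, 14 and 25. MHC class II genes such as H2-Aa and Cd74 were also among their leading genes. Gates for interferon-induced genes, the cell cycle, MHC class II, Emp3 with Fxyd5 and Tnfsf13b, and astrocyte transcripts completed the 9 populations measured in every run. All 10 pan-myeloid markers, among them Ptprc and Csf1r, were detected in each of the 9 in every run. Levels are in CPM, the UMIs of a gene scaled to the total over all cells of a population in a run.

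Depth was uneven, with a median of 4425, 3438 and 3696 UMIs per kept cell in runs 1, 2 and 3. Lipid-gate cells were deeper than reference cells in each run (6688, 5496 and 5604 against 4388, 3421 and 3669 UMIs), and cycling cells were deeper still in each run. Cells holding Xist as well as Y-linked UMIs can be mixtures of male and female cells or hold free RNA, which were not told apart. Such cells made up 1.64% to 2.88% of reference microglia. The chemokine gate held 11.1%, 13.3% and 0% of them, and the lipid gate 5.56%, 2.38% and 0%. The Emp3 gate held 16%, 8.33% and 0%, and the interferon gate 10.3%, 6.25% and 4.35%. Between 7 and 10 cell barcodes were shared by any 2 runs. Whether the runs came from different animals is not stated, so p-values measure the spread between these 3 runs, which may be technical. In the comparisons with reference microglia, edgeR used a spread shared over genes. Their SE, intervals and p-values therefore do not follow how uneven a single gene was between runs.

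Across the 9 populations the ratio of the highest to the lowest mean was larger for Cd9, Cd63 and Cd81 than for the other members. Mean Cd9 was 44-fold higher in the highest population than in the lowest, Cd63 17.1-fold and Cd81 12.3-fold. The ratio was 3.98 for Cd37, 2.96 for Cd151, 2.35 for Cd53 and 2.20 for Cd82. Cd9 was highest in the lipid gate and lowest in border macrophage-like cells (92.0 CPM), with its next lowest mean at 1328 CPM in the interferon gate. Cd81 was also lowest in border macrophage-like cells (368 CPM), and its means in all other populations lay between 2938 and 4535 CPM. The large ratio of Cd81 thus came from 1 population. Cd63 was highest in the lipid gate and lowest in cycling cells, with border macrophage-like cells in second place. Most neighbours in these orders overlapped between runs: of 8 neighbouring pairs, 1 was apart for Cd9, Cd63 and Cd53, 2 for Cd81 and none for Cd37, Cd82 or Cd151.

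**Figure D1:**
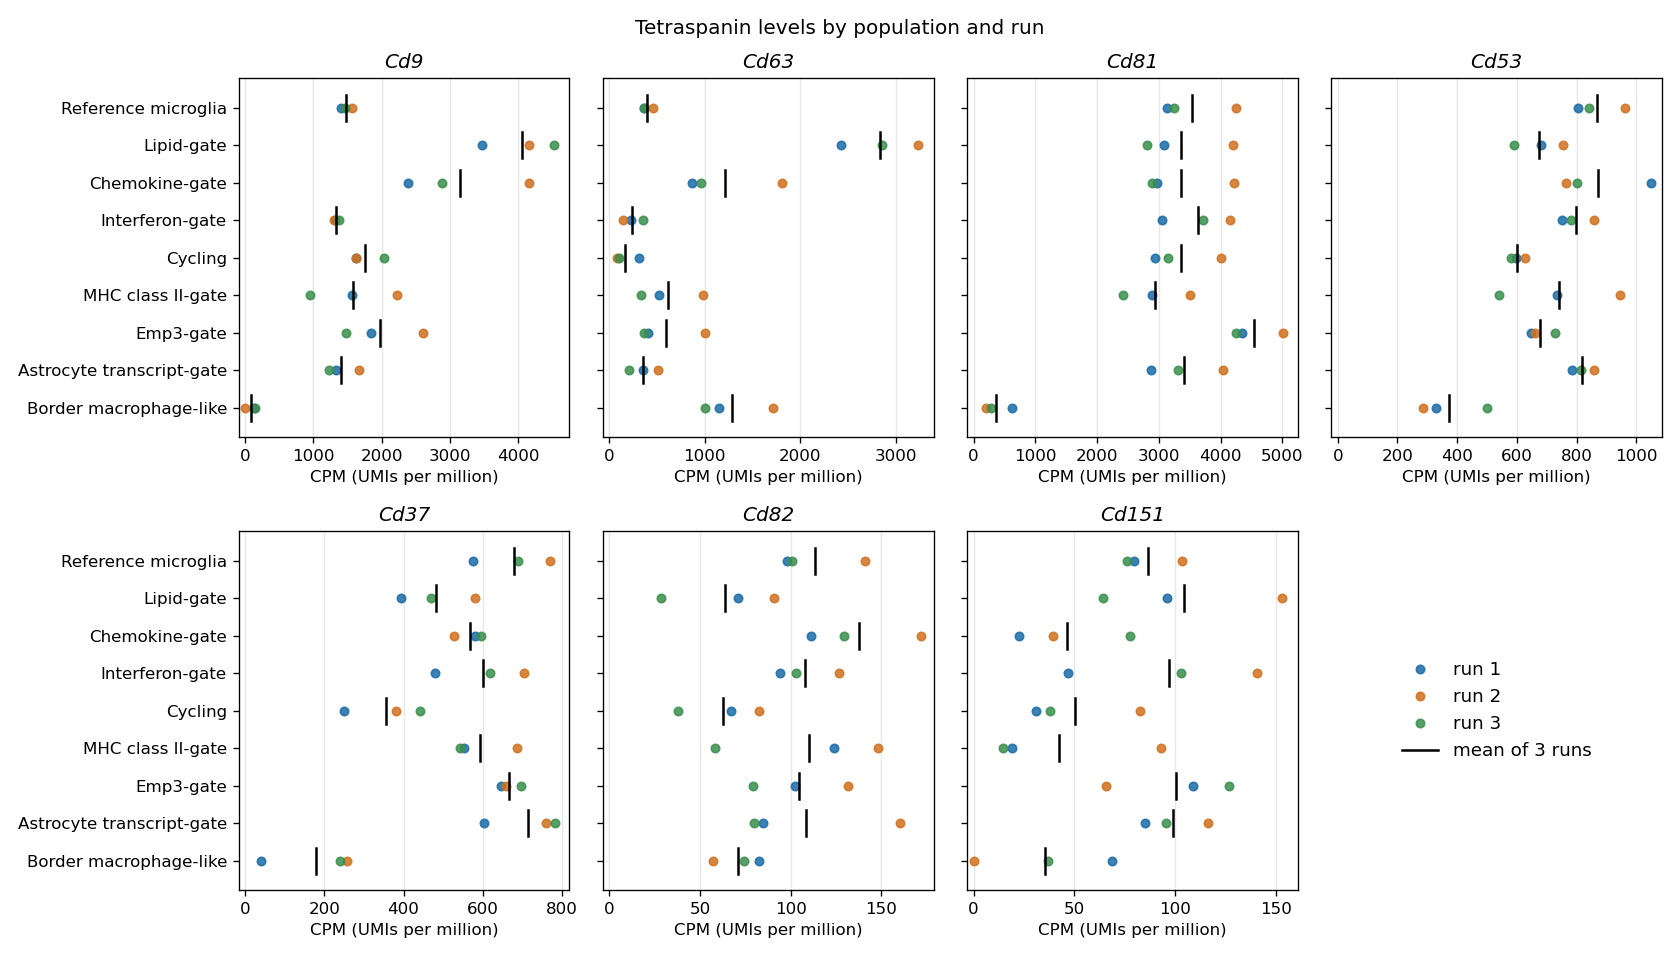
CPM of each gene (x axis, linear from 0) in the 9 populations (rows). Points are the 3 runs and black bars their means. Lipid-gate cells stand above reference microglia in every run for Cd9 and Cd63, and border macrophage-like cells stand below them for Cd9, Cd81, Cd53 and Cd37.

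In lipid-gate microglia, Cd63 and Cd9 rose, Cd53, Cd37 and Cd82 fell, and Cd81 and Cd151 did not pass the test. The 5 members called, of 7, compare with 13.5% of the 11182 genes tested by edgeR's quasi-likelihood test at an adjusted p under 0.05. The 2 that rose stand beside 6.49% of genes called higher, and the 3 that fell beside 7.01% called lower. The runs of 4 members did not overlap with reference microglia, as was so for 27.8% of genes. The median log2 change of the 7 was -0.04, against -0.09 over all genes tested.

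Cd63, the late endosomal tetraspanin, was at 2428, 3241 and 2859 CPM in lipid-gate cells of runs 1, 2 and 3. In reference microglia it was at 368, 460 and 369 CPM. Every lipid-gate value was above every reference value. The means were 2842 ± 407 and 399 ± 53 CPM (SD, n = 3 runs), and edgeR gave a log2 change of 2.86 ± 0.07 (SE, adjusted p = 1.46e-308). Such a small p comes from a spread shared over all genes, and without the run as a block the adjusted p was 1.38e-06 (edgeR). By fold, Cd63 ranked among the top 10 genes of the lipid gate, beside 6 of its gate markers.

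Cd9, a surface tetraspanin, was at 3471, 4155 and 4519 CPM in lipid-gate cells and at 1410, 1562 and 1460 CPM in reference microglia. The groups did not overlap. The log2 change was 1.47 ± 0.07 (SE, edgeR adjusted p = 4.05e-97, and 5.94e-05 without the block). Against reference cells matched on UMIs per cell, the log2 changes were 2.66 for Cd63 and 1.44 for Cd9. Both calls were kept under all 12 alternative settings.

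Cd37, a leukocyte tetraspanin, was at 393, 579 and 470 CPM in lipid-gate cells and at 575, 771 and 688 CPM in reference microglia. It was lower in each run, although the ranges overlapped between runs, and fell by 0.46 on the log2 scale (SE 0.10, edgeR adjusted p = 4.53e-05). Without the run as a block its adjusted p was 0.236. Cd53, its leukocyte relative, fell by 0.30 (SE 0.09, adjusted p = 0.00691, edgeR), and Cd82 fell by 0.65 (SE 0.20, adjusted p = 0.00971, edgeR). These calls were the fragile ones: each was lost under 7 of 12 alternatives, among them DESeq2 (adjusted p = 0.150 for Cd53 and 0.157 for Cd82), the fit without the block (0.374 and 0.247) and the matched reference (0.0561 and 0.115). Without run 2 the edgeR adjusted p was 0.0989 for Cd53 and 0.0693 for Cd82, and without run 3 it was 0.0530 and 0.121.

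Cd81, which shares partners with CD9, was measured in the lipid gate at 3090, 4205 and 2802 CPM against 3139, 4248 and 3245 CPM. Its log2 change was -0.04 (95% interval -0.17 to 0.10, edgeR adjusted p = 0.812). Cd151 was at 95.7, 153 and 64.2 CPM against 79.8, 103 and 76.0 CPM, higher in 2 of 3 runs (log2 change 0.36, edgeR adjusted p = 0.204). The summed level of the 8 microglia markers in lipid-gate cells was 43.9% to 48.0% of that in reference microglia of the same run, and Cd81 was at 86.3% to 99.0%. Whether the lower microglia markers have a part in the changes of the members was not tested.

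In chemokine-gate microglia Cd9 and Cd63 again rose, and the other 5 members did not pass the test. The 2 members called compare with 2.38% of 11003 genes, 1.05% higher (115 genes higher and 147 lower, or 166 and 79 when DESeq2 size factors replaced TMM, the main scaling). The same 2 members had runs that did not overlap with reference microglia, against 32.3% of genes. Cd63 was at 870, 1809 and 956 CPM, above all 3 reference values, with a log2 change of 1.47 ± 0.15 (SE, edgeR adjusted p = 7.63e-21). Cd9 was at 2386, 4160 and 2882 CPM, also above all 3 reference values, with a log2 change of 0.96 ± 0.12 (SE, edgeR adjusted p = 6.02e-13). Without the run as a block the adjusted p was 0.00412 for Cd63 and 0.0322 for Cd9 (edgeR), and both calls were kept under all 12 alternatives. Run 2 gave the highest values of both genes. Leaving out cells that held Xist as well as Y-linked UMIs gave log2 changes of 1.61 and 1.04.

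The other 5 members had log2 changes from -0.90 (Cd151, from 10 UMIs in all) to 0.18 (Cd82) in the chemokine gate, with the lowest adjusted p at 0.291 (edgeR, Cd37). Cd81 was at 2966, 4213 and 2882 CPM, lower than reference microglia of the same run by a small margin in each, with overlapping ranges. Cd37 passed the test only with a stricter gate of 8 UMIs of each chemokine (log2 change -0.51, edgeR adjusted p = 0.0309).

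Lipid-gate and chemokine-gate cells differed from each other in Cd63. It was 2.35-fold higher in the lipid gate by the means and higher in each run (log2 change 1.22 ± 0.14 SE, edgeR adjusted p = 5.95e-09), and it was the 1 called member of 6 tested, against 9.36% of 1773 genes (3.21% higher in the lipid gate). The groups did not overlap, as was so for 3 of the 6 members and 21.1% of genes, and the call was kept under all 11 alternatives. Cd9 was at 3471, 4155 and 4519 CPM in the lipid gate and 2386, 4160 and 2882 CPM in the chemokine gate, about equal in run 2 and higher in the lipid gate in the other 2 runs. Its log2 difference of 0.35 (95% interval 0.10 to 0.59) had an edgeR adjusted p of 0.0660 and passed the test in 4 of 11 alternatives. Cells passing both gates numbered 7 in all, too few for a test, and held Cd9 at 4023, 7915 and 6354 CPM and Cd63 at 1143, 5748 and 5763 CPM. Their Cd81 level was 2240, 2732 and 2290 CPM.

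**Figure D2:**
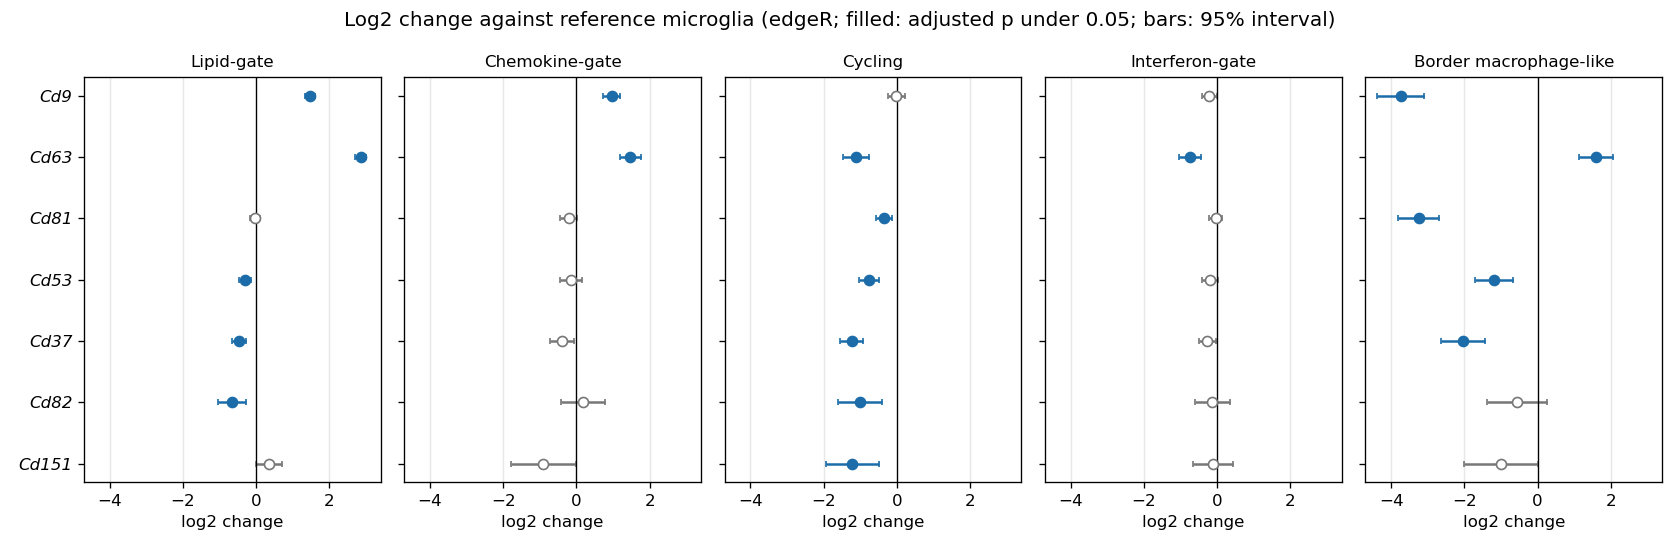
Fitted log2 change of each member (rows) against reference microglia in 5 populations (panels). Points are edgeR estimates, bars their 95% intervals, and filled points have an adjusted p under 0.05. Cd63 lies to the right of 0 in the lipid, chemokine and border macrophage-like panels and to the left in the cycling and interferon panels.

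Border macrophage-like cells showed the widest contrast between members: Cd9, Cd81, Cd37 and Cd53 fell and Cd63 rose. The 5 members called of 7 compare with 10.5% of 11085 genes (4.47% called higher and 6.02% lower). With the reference matched on UMIs per cell, fewer genes entered the test, and 1140 of 5819 were called (560 higher and 580 lower). All 7 members had runs that did not overlap with reference microglia, as did 44.3% of genes. The median log2 change of the 7 was -1.19, against -0.52 over all genes tested.

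Cd9 was at 137, 0 and 139 CPM in runs 1, 2 and 3, against 1410, 1562 and 1460 CPM in reference microglia. A count of 0 among the 35017 UMIs of run 2 allows up to 85.7 CPM, which covers counting error only. The log2 change was -3.74 ± 0.33 (SE, edgeR adjusted p = 1.46e-27). Thinned to 1000 UMIs per cell, 6.22% of these cells had a Cd9 UMI, against 71.0% of reference microglia, with a median of 1958 to 4048 UMIs per cell before thinning. The share was 0% in the 9 T or NK cells, in which no Cd9 UMI was counted at any depth.

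Cd81 was at 618, 200 and 287 CPM against 3139, 4248 and 3245 CPM, with a log2 change of -3.24 ± 0.29 (SE, edgeR adjusted p = 3.02e-27). Without run 1, its highest run, the log2 change was -3.91. Cd37 was at 41.2, 257 and 241 CPM, from 38 UMIs in all (log2 change -2.03 ± 0.31 SE, edgeR adjusted p = 1.86e-09, and -2.65 without run 3). Cd53 was at 329, 286 and 500 CPM (log2 change -1.19 ± 0.27 SE, edgeR adjusted p = 1.82e-04), and its call was lost without run 1 (adjusted p = 0.0622, edgeR). All 4 genes were below their reference values in every run.

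Cd63 went the other way, at 1153, 1713 and 999 CPM against 368, 460 and 369 CPM, with a log2 change of 1.59 ± 0.23 (SE, edgeR adjusted p = 5.57e-10). It was higher in each run and kept its call under all 13 alternatives, as did Cd9, Cd81 and Cd37. Cd82 was at 82.4, 57.1 and 74.0 CPM and Cd151 at 68.6, 0 and 37.0 CPM, from 16 and 9 UMIs, and neither passed the test (edgeR adjusted p = 0.495 and 0.251).

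The microglia markers summed to 3.26% to 3.49% of their reference level in border macrophage-like cells, which follows in part from the gate. Cd9 was at 0% to 9.73% of its reference level there and Cd81 at 4.71% to 19.7%. How much of these low levels came from free or carried-over microglial RNA was not tested. When the limit of 2 microglia markers was lifted, the log2 change of Cd9 was -1.85, that of Cd81 -1.59 and that of Cd37 -0.97, each still called, while Cd63 was at 1.26.

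Cd63 was high in both lipid-gate and border macrophage-like cells, whereas Cd9 and Cd81 separated them. Against the lipid gate, 5 members passed the filter on low counts. Border macrophage-like cells were lower in all 5, against 29.4% of 2035 genes called (14.3% lower). None of the 5 overlapped between the groups, against 40.3% of genes that did not. The log2 difference was -5.06 ± 0.29 for Cd9, -2.97 ± 0.24 for Cd81, -1.37 ± 0.31 for Cd37 and -1.07 ± 0.19 for Cd63 (SE, edgeR adjusted p = 2.25e-19, 3.59e-14, 5.76e-04 and 1.50e-05). The difference of -0.67 in Cd53 (edgeR adjusted p = 0.0393) lost its call under 9 of 12 alternatives, including leaving out run 1 (0.256) or run 2 (0.269). That of Cd37 was lost when the limit on microglia markers was lifted (edgeR adjusted p = 0.233). Cd82 and Cd151 had too few counts for this test. Mean Cd82 was 71.2 CPM in border macrophage-like cells against 63.6 CPM in the lipid gate, and mean Cd151 was 35.2 against 104 CPM. Cd9 and Cd37, with 25 and 38 UMIs in border macrophage-like cells, entered the test by their counts in the lipid gate. That all 5 were lower thus follows in part from the filter and is not read as a result about the members.

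In cycling microglia, 6 of 7 members fell and Cd9 did not pass the test, against 16.3% of 11174 genes called (8.41% lower). The microglia markers summed to 62.0% to 65.4% of their reference level in these cells, and the 10 pan-myeloid markers to 27071 to 34890 CPM against 37726 to 46268 CPM. The part of these lower levels in the changes of the members was not tested. The runs of 5 members did not overlap with reference microglia, against 35.2% of genes. Cd37 was at 249, 380 and 442 CPM, below its 575, 771 and 688 CPM in reference microglia (log2 change -1.23 ± 0.16 SE, edgeR adjusted p = 1.68e-12). Cd53 was at 596, 628 and 580 CPM, below all reference values (log2 change -0.76 ± 0.14 SE, edgeR adjusted p = 2.06e-06). Cd63 was at 316, 82.6 and 101 CPM, lower in each run but unevenly so (log2 change -1.11 ± 0.18 SE, edgeR adjusted p = 4.50e-08). Without run 1, the Cd63 log2 change was -2.46. These 3 calls were kept under all 11 alternatives.

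Cd82 and Cd151 rested on 21 and 14 UMIs in cycling cells. Their log2 changes were -1.01 and -1.21 (edgeR adjusted p = 0.00912 and 0.00859), and DESeq2 gave adjusted p = 0.139 and 0.157. Cd82 also lost its call without run 2 (0.0576) or run 3 (0.0827), and Cd151 without run 1 (0.308), with edgeR adjusted p in parentheses. Cd81 was called at a log2 change of -0.34 (edgeR adjusted p = 0.0220), but its CPM of 2933, 4000 and 3154 overlapped the reference range and the call was lost under 8 of 11 alternatives, including leaving out any single run. The fitted values are relative to the TMM scaling, under which the median gene changed by -0.23. Cd9 had a fitted log2 change of -0.01 (edgeR adjusted p = 0.975) and became 0.09 with DESeq2 size factors, while its CPM of 1622, 1620 and 2031 was above all 3 reference values.

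Interferon-gate microglia had lower Cd63, at 226, 141 and 350 CPM against 368, 460 and 369 CPM. The groups did not overlap, as was so for 2 of the 7 members and 20.5% of genes, but run 3 lay close to reference. The log2 change was -0.74 ± 0.16 (SE, edgeR adjusted p = 2.85e-04), the 1 member called of 7, against 1.5% of 11075 genes (0.217% lower). Cd63 lost this call under 4 of 12 alternatives, namely DESeq2 (adjusted p = 0.407), the fit without the block (0.263), the fit without run 2 (0.300) and stricter gates (0.104). The other 6 members had log2 changes from -0.26 to -0.04.

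No member was called by edgeR in the MHC class II gate, the astrocyte transcript gate or the Emp3 gate, where 0.634%, 0.66% and 0.49% of genes were called. At an unadjusted edgeR p under 0.05 there were 2, 0 and 4 members. Of all genes, 784 of 11044, 570 of 11209 and 768 of 11027 passed at that level. DESeq2 called 0, 0 and 1 members, beside 56, 60 and 55 of all genes. In the Emp3 gate Cd81 was at 4343, 5009 and 4253 CPM, above all 3 reference values, with a log2 change of 0.30 (edgeR adjusted p = 0.533). Cd53 was at 646, 659 and 727 CPM there, below all 3 reference values, with a log2 change of -0.40 (edgeR adjusted p = 0.383). These were the 2 of 7 members whose runs did not overlap, against 23.7% of genes. With DESeq2 size factors in edgeR, Cd81 and Cd9 were called in that gate (log2 change 0.43 and 0.46, edgeR adjusted p = 0.00454 and 0.00653). That scaling moved the median of all genes from -0.20 to -0.08 and the split of calls in the Emp3 gate from 33 higher and 21 lower to 99 and 13. In the MHC class II gate Cd63 ranged from 337 to 983 CPM over the runs, and 2 of the 3 values were above all reference values. Border macrophage markers summed to 210 to 732 CPM in this gate, against 3.48 to 7 CPM in reference microglia, with Lyve1, Cbr2 and Folr2 at 0 in all runs and Ms4a7 among the leading genes. Their part in the Cd63 level was not tested. With the size factors, the split of calls in the MHC class II gate moved from 54 higher and 16 lower to 72 and 3. Cells holding Xist as well as Y-linked UMIs made up 19.0%, 0% and 7.69% of that gate.

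Reference microglia were also divided by sex-linked transcripts, and none of the 7 members was called by edgeR, against 0.437% of 11201 genes. Their log2 differences (cells with Xist minus cells with Y-linked UMIs) lay between -0.00 and 0.12. Cd37 had the largest, 0.12 (95% interval 0.04 to 0.20, edgeR adjusted p = 0.293), and was higher in cells with Xist in each run. At an unadjusted edgeR p under 0.05 there were 2 members, beside 1092 of 11201 genes. DESeq2 called 0 members and 12 of all genes.

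The share of cells with a UMI gave the same order as the CPM for the widest changes. At 1000 UMIs per cell, a Cd63 UMI was found in 93.1% ± 2.46 of lipid-gate cells and 27.9% ± 2.63 of reference microglia (SD, n = 3 runs). It was found in 71.5% ± 13.5 of border macrophage-like cells and 12.9% ± 6.35 of cycling cells. A Cd9 UMI was found in 97.3% ± 2.35 of lipid-gate cells and 84.0% ± 5.39 of chemokine-gate cells. Without thinning the shares in reference microglia were 96.6% for Cd9 and 61.9% for Cd63, and in lipid-gate cells both were 100%. A Cd81 UMI was found in 93.3% to 98.7% of the lipid, chemokine and cycling populations and 23.4% ± 14.4 of border macrophage-like cells. Free RNA can add UMIs to cells that do not express a gene. The share with a Cd53 UMI was 0% in choroid plexus epithelial-like cells, where 0 Cd53 UMIs of 79788 allow up to 37.6 CPM.

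**Figure D3:**
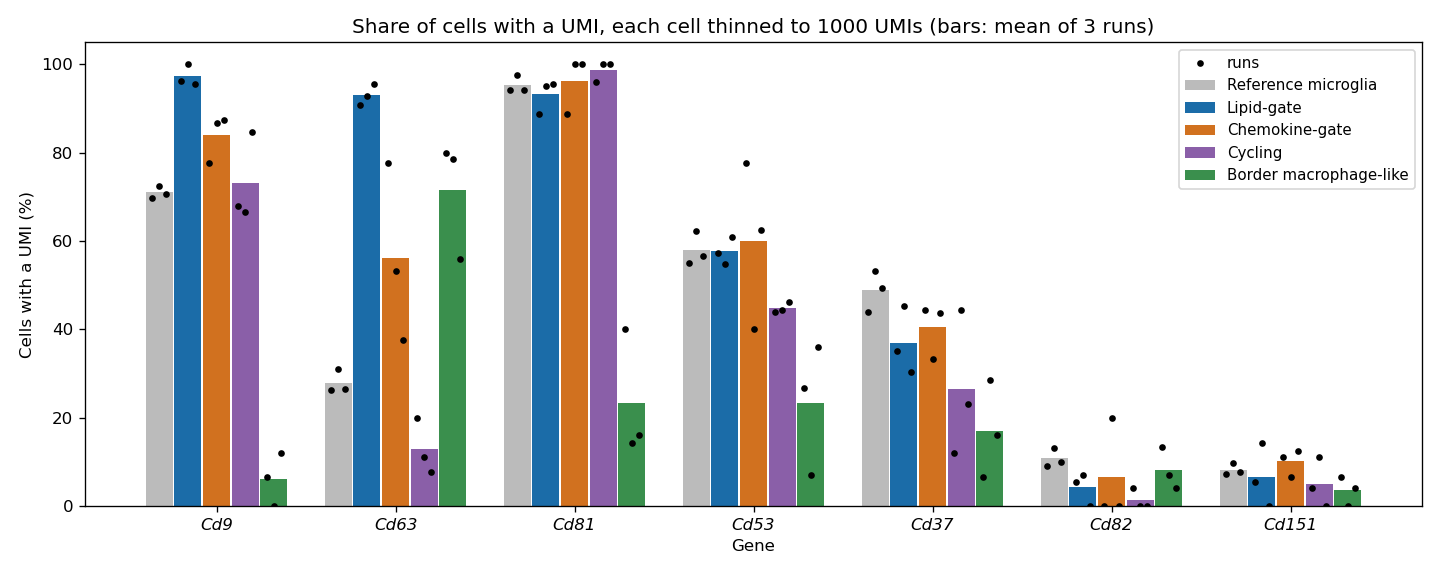
Percent of cells with at least 1 UMI of each member after every cell was thinned to 1000 UMIs. Bars are means over 3 runs and points are the runs, with the axis from 0. For Cd63 the lipid-gate and border macrophage-like bars stand at 93.1% and 71.5%, and reference microglia at 27.9%.

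Within reference microglia themselves, Cd9 and Cd63 varied more between cells than counting alone gives. At 1000 UMIs per cell the variance over the mean of the UMI count was 1.48, 1.56 and 1.57 for Cd9 in runs 1, 2 and 3 and 1.49, 1.53 and 1.49 for Cd63. For Cd81 it was 1.18, 1.27 and 1.20. The leukocyte tetraspanins lay near 1, the value for pure counting noise, at 1.00 to 1.03 for Cd53 and 1.03 to 1.06 for Cd37. Cd53 had 0.810 to 0.970 UMIs per cell in these values and Cd63 had 0.357 to 0.446. For Cd82 and Cd151, with at most 0.142 UMIs per cell, the ratio was 1.00 to 1.02. Cells that passed a gate are not in these values, but cells with some gate markers that fell short of its cut-off are. Whether such cells add to the spread of Cd9 and Cd63 was not tested.

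**Figure D4:**
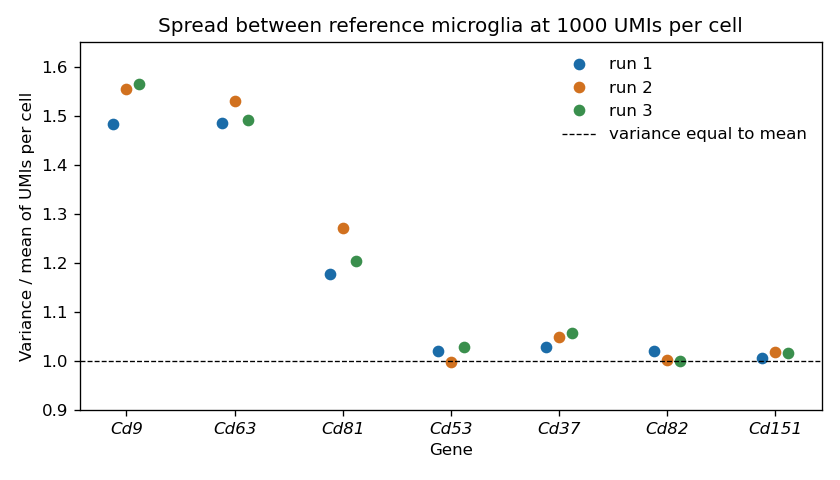
Variance over mean of UMIs per cell in reference microglia, each cell thinned to 1000 UMIs, by gene (x axis) and run (colour). The y axis starts at 0.9 and the dashed line marks a ratio of 1. Cd9 and Cd63 lie between 1.48 and 1.57, Cd81 between 1.18 and 1.27 and the other 4 genes at most at 1.06.

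Over the log2(CPM + 1) of each run, averaged per population, the members fell into patterns. They are given here as a description of 9 points that share 3 libraries. Cd9 and Cd81 had a Pearson r of 0.954, and Cd53 and Cd37 of 0.945. Cd63 had an r of -0.112 with Cd9 and of -0.341 with Cd81. Border macrophage-like cells lie far from the rest for most of these genes and weigh heavily in each r. In their run 2, Cd9 and Cd151 had 0 UMIs, which entered as a log2 value of 0. Each r of Cd9 and Cd151 therefore rests in part on the pseudocount. Among 5070 genes searched, the patterns most like Cd63 were those of Uap1l1 (r = 0.985), Ctsb, which encodes the lysosomal protease cathepsin B (0.976), and Lamp1, a lysosomal membrane protein (0.95). Those most like Cd9 were Lrp1, an endocytic receptor (0.995), Slc16a3, a lactate transporter (0.989), and Tmem104 (0.988). Mlxipl, Smndc1 and Camsap1 were most like Cd81 (0.993, 0.992 and 0.992), and Atp8a2 and Col27a1 were among those most like Cd37 (0.995 and 0.989). For Cd53 they included Saraf and Tmem63a (0.980 and 0.979). They were for Cd82 Gtf2i, Ncoa3 and Arrb2 (0.977, 0.918 and 0.917), and for Cd151 Tvp23b, Acadsb and Dpy19l4 (0.975, 0.968 and 0.949). Pearson r does not compare the size of changes. From lowest to highest population, Lamp1 spanned 0.941 log2 units against 4.34 for Cd63, and Lrp1 1.95 against 7.23 for Cd9. Mlxipl spanned more than its member, 6.78 against 3.78 for Cd81.

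Tetraspanins outside the 7 members were described from a list. Of 24 listed, 14 had enough counts to be tested in the lipid gate. Of these 1 rose and 3 fell by edgeR, where 6.49% of all genes were called higher and 7.01% lower. Tspan5, a regulator of the protease ADAM10, rose from 8.64 to 23.8 CPM (log2 change 1.59 ± 0.44 SE, edgeR adjusted p = 0.00371), from 20 UMIs. Its call was lost without run 1 (adjusted p = 0.377, edgeR), with stricter gates (0.238, edgeR) and with looser gates (0.11, edgeR). Upk1b, a uroplakin family tetraspanin, fell from 90.6 to 15.6 CPM (log2 change -2.42 ± 0.31 SE, edgeR adjusted p = 2.58e-13) and kept its call under all 12 alternatives. Tspan18 fell from 28.1 to 7.85 CPM (edgeR adjusted p = 0.00555), from 7 UMIs. Its call was lost without run 1 (log2 change -2.32 in place of -1.66, adjusted p = 0.0592, edgeR) or run 2 (0.0913, edgeR). It was also lost with DESeq2 (adjusted p = 0.132) and with stricter gates (0.266, edgeR).

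In border macrophage-like cells 5 of 14 other tetraspanins fell and none rose, where 6.02% of all genes were called lower. Between 3 and 7 of them were called over the alternatives. No UMI of Upk1b or Tspan18 was counted there among 215943, so with a floor of 3 counts over the group Upk1b was at least 6.52-fold lower and Tspan18 at least 2.02-fold lower than in reference microglia. The call of Tspan18 was lost under 8 of 13 alternatives, among them leaving out each run. In the chemokine gate 2 of 14 fell, where 2.38% of all genes were called in either direction and 147 of 11003 lower. They were Tspan3 (log2 change -1.14, edgeR adjusted p = 0.0229) and Tspan14 (-1.12, 0.0231). These 2 lost their calls under 11 and 10 of 12 alternatives, including leaving out any single run.

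Among 25 listed partners of tetraspanins, 19 were tested in the lipid gate. Of these 2 rose and 3 fell, beside 6.49% of all genes called higher and 7.01% lower. Lamp1 rose from 1009 to 1754 CPM (log2 change 0.82 ± 0.08 SE, edgeR adjusted p = 1.78e-25) and Lamp2, another lysosomal membrane protein, from 447 to 531 CPM (0.27 ± 0.10 SE, edgeR adjusted p = 0.0376). Lamp2 lost its call under 7 of 12 alternatives, leaving out each run among them. Cd47, an integrin-associated signal against engulfment, fell from 291 to 163 CPM (log2 change -0.81 ± 0.14 SE, edgeR adjusted p = 1.09e-07). Border macrophage-like cells had 2 of 21 partners higher and 5 lower, beside 4.47% and 6.02% of all genes. The fatty acid and lipoprotein receptor Cd36 was at 148 CPM against 0.162 CPM (log2 change 9.75 ± 0.74 SE, edgeR adjusted p = 1.55e-36). The integrin subunit Itga4 was at 49.8 against 0.580 CPM (6.48 ± 0.93 SE, edgeR adjusted p = 2.45e-10). Cd36 had 33 UMIs in border macrophage-like cells and 12 in reference microglia, and Itga4 had 11 and 48. The size of both changes is therefore uncertain. Itga4 lost its call without run 3 (log2 change 5.52, adjusted p = 0.0898, edgeR). Itgam, the integrin subunit CD11b, fell from 465 to 87.9 CPM, from 24 UMIs (log2 change -2.22 ± 0.34 SE, edgeR adjusted p = 3.05e-09). In the chemokine gate 1 of 19 partners fell, or 5.26%. Of all genes 2.38% were called there in either direction, and 147 of 11003 were called lower. The partner that fell was the laminin receptor subunit Itga6 (log2 change -1.08 ± 0.26 SE, edgeR adjusted p = 0.00397), with ranges that overlapped between runs. Its call was lost under 3 of 12 alternatives: without run 2 (edgeR adjusted p = 0.439), without the block (0.225, edgeR) and with DESeq2 (0.22).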

How the data were processed

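Single-cell RNA sequencing (10x Genomics) was done on 3 runs of tdTomato+ cells. Per the submitters' processing notes, Cell Ranger, Seurat 4.0 and the mouse build mm10 were used, and per the file headers the counting software was version 3.0.2 for run 1 and 3.1.0 for runs 2 and 3. The deposited values are raw UMI counts per gene and cell, with no normalization by the authors. The 3 tables held 7255, 6895 and 6226 barcodes and 34140879, 24717907 and 24225612 UMIs. Whether counting used strand, and how reads of near-identical genes were treated, is not given in the sources used here.

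Cells were gated by detected marker genes, and cells of several gates were left out (93 cells of several states and 155 passing several lineage gates, or 1 lineage gate with 3 or more microglia markers). No doublet caller was run. Counts were summed per population and run, and populations with at least 5 cells in each run were tested with edgeR 4.0.16 (R 4.3.3): TMM scaling, a filter on low counts, the run as a block, the quasi-likelihood test and p-values adjusted by Benjamini-Hochberg across the whole table, gate markers left out. Intervals of log2 changes are 95%. Shares of cells were taken after thinning each cell to 1000 UMIs with Python 3.11.15, NumPy 2.4.6, SciPy 1.17.1 and pandas 2.3.3. Floors for a count of 0 use 3 counts, and floors and intervals of single levels cover counting error only. Sums of the same run come from the same library, which is the reason for the block. Their deviations from the group means correlated between 0.0876 and 0.380 in the comparisons of populations. In the split of reference microglia by sex-linked transcripts they correlated between 0.685 and 0.777. The edgeR test was tried on simulated counts with known changes, the same spread for all genes and no gene differences between runs. Such counts cannot check the block or the use of a shared spread.

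All 7 members were named in each comparison. From the lists of other tetraspanins and partners, at most 3 genes per direction were named, those with the largest change among genes called, at 20 CPM or more in the higher population and with 1 direction in all 3 runs. Like patterns were the 3 genes of highest Pearson r among genes at 50 CPM or more in some population, with a pseudocount of 1 CPM. Of these, 2 genes are not reported here. The members and lists were chosen with earlier results of these data known. Alternatives were DESeq2 1.42.0 (its size factors, and its Wald test), no filter, no block, each run left out, stricter gates, a minimum of 2000 UMIs, no cells holding Xist as well as Y-linked UMIs, and no limit on microglia markers. Looser gates and a reference matched on UMIs per cell were chosen after seeing the data. Clec7a was not used in the lipid gate.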

Additional observations from a re-analysis of the deposited data

How the results depend on the processing

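Of 25 calls of members refitted in 298 alternative fits, 255 fits kept the call, 43 lost it and 0 turned its direction. Of 49 results not called, 14 of 559 fits passed the test. The 5 members called in the lipid gate became 3 with DESeq2, stricter gates, looser gates or the matched reference, 2 without the replicate block, and 3 to 5 when a run was left out. The 1 in the interferon gate became 0 with DESeq2, without the block or with stricter gates, and 0 to 1 with a run left out. The 6 in cycling cells became 3 with DESeq2. The 0 in the Emp3 gate became 2 with DESeq2 size factors, 1 with DESeq2 or stricter gates and 3 with looser gates. The 0 in the MHC class II gate became 1 with looser gates (Cd63, log2 change 0.87). The 1 between lipid and chemokine gates became 2 with size factors, no filter or at least 2000 UMIs, and 1 to 2 with a run left out. Causes were not tested, beyond the fewer samples and cells that some alternatives hold.

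Over all genes, calls without the block numbered 498 in place of 1510 (lipid), 68 in place of 262 (chemokine), 18 in place of 54 (Emp3), 53 in place of 166 (lipid against chemokine) and 0 in place of 49 (Xist against Y-linked). Across all alternatives they ranged from 498 to 1642 for the lipid gate, 68 to 434 for the chemokine gate, 489 to 1472 for border macrophage-like cells, 928 to 1836 for cycling cells, 19 to 274 for MHC class II, 7 to 124 for astrocyte transcripts (main count 74), 17 to 329 for Emp3, 44 to 177 for lipid against chemokine, 309 to 886 for border against lipid and 0 to 122 for Xist against Y-linked. The main counts were 1162 for border macrophage-like cells, 1822 for cycling cells, 70 for MHC class II and 599 for border against lipid. The matched reference also lowered the number of genes tested. Calls then were 1170 of 9145 (lipid), 225 of 6378 (chemokine), 1510 of 7791 (cycling) and 172 of 7811 (interferon). DESeq2 size factors moved the median of all genes by 0.16 (chemokine), 0.12 (border), 0.17 (MHC class II) and 0.12 (Emp3) on the log2 scale.

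Thinning to 2000 in place of 1000 UMIs moved 46 of 63 shares by more than their SD, as shares rise with depth. Taking the mean over cells in place of the sum moved 2 of 63 CPM levels. Looser gates for cycling cells and stricter gates for astrocyte transcripts were not run, since a run then held 4 cells. Populations with under 5 cells in a run, the cells passing both lipid and chemokine gates among them, were not tested.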

Other observations

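Populations with under 5 cells in a run were summed over runs and carry exact Poisson 95% intervals, which cover counting error only. In 8 monocyte-like cells (61363 UMIs), Cd53 was at 342 CPM (212 to 523) and Cd37 at 261 CPM (149 to 423). Cd9 had 1 UMI and Cd81 had 2 in these cells, and no Cd63 UMI was counted, which allows up to 48.9 CPM. In 9 T or NK-like cells (35646 UMIs), Cd37 was at 337 CPM (174 to 588), and 0 UMIs of Cd9 and Cd63 allow up to 84.2 CPM of each. In 4 dendritic-like cells of run 3 (83710 UMIs), Cd9 was at 299 CPM (193 to 441), Cd53 at 251 CPM (155 to 383) and Cd37 at 83.6 CPM (33.6 to 172), and Cd63 had 1 UMI.

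In 34 choroid plexus epithelial-like cells (79788 UMIs), Cd63 was at 1479 CPM (1224 to 1771), Cd81 at 1028 CPM (817 to 1276) and Cd9 at 627 CPM (465 to 826). Cd53 had 0 UMIs there and Cd37 had 2. The 136 cells of the early gene gate, 130 of them in run 3, had Cd9 at 1693 CPM (1593 to 1797), Cd63 at 403 CPM (355 to 456) and Cd81 at 3286 CPM (3146 to 3430). In reference microglia of run 3 these genes were at 1460, 369 and 3245 CPM.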
